A study of Mus musculus with 9 samples.

Results

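The Serpina1 and Serpina3 genes studied here are 10 paralogs that encode secreted or intracellular inhibitors of serine proteases. They were taken from the table of normalized counts by symbol (Serpina1a, Serpina1b, Serpina1c, Serpina1d, Serpina1e, Serpina3c, Serpina3g, Serpina3k, Serpina3m and Serpina3n), which gave 10 of 32285 genes, and all 10 passed the filter that left 12100 genes for testing. The livers came from Tet-OFF mice, in which the tTA transactivator drives a tetO-linked Venus and mCherry reporter at Rosa26 once a CreERT2 recombinase has removed a stop cassette. There were 3 libraries of control mice, 3 of mice given Dox (doxycycline hyclate) and 3 of mice given Tc (tetracycline hydrochloride), and both drugs were dissolved at 2 mg/mL, with 10 mg/mL sucrose, in the water that the mice drank for 7 days from 4 weeks of age.

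Every group, the controls included, carried the tamoxifen label, so any effect of tamoxifen is shared by the libraries compared. The methods place the CreERT2 under a ubiquitous CAG promoter on a piggyBac transgene and the stop-cassette tTA and tetO reporter alleles at Rosa26. The embryonic stem cells behind the mice joined C57BL/6 and 129/sv genomes, and inbred strains are known to differ in their Serpina1 copies. Which Serpina copies each mouse carried was not tested. The sample labels name a tissue and the treatments but no genotype, and they do not say that the controls drank sucrose. Nothing in them says that the libraries of a group came from separate mice, although the study describes 3 independent samples, so p-values measure the spread between these libraries.

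Serpins trap their target protease with an exposed reactive centre loop, which the protease cuts like a substrate. The cut loop then inserts into the body of the serpin and the protease is held in a covalent complex. In mouse, the single human alpha-1-antitrypsin gene is represented by the Serpina1 copies and the single human alpha-1-antichymotrypsin gene by the Serpina3 copies, most of them made by hepatocytes and secreted into plasma. The loop differs most between the copies and decides which protease is bound, with neutrophil elastase as the classical target of alpha-1-antitrypsin and cathepsin G as that of alpha-1-antichymotrypsin. Serpina3n is an acute-phase gene, and Serpina3g is known from lymphocytes and macrophages as well.

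Doxycycline and tetracycline share the same fused ring system, and doxycycline lacks a hydroxyl of tetracycline and carries a hydroxyl at another carbon. Both bind the tetracycline repressor part of tTA. The comparisons below answer whether either drug, at matched concentration and time, went with other levels of these genes in liver than in the controls. They also answer whether Dox and Tc differed. In Tet-OFF mice, the paper reports Venus expression after tamoxifen without a drug, and its repression by Dox or Tc at this concentration. In mice of this design, a comparison with the controls therefore changes the state of the reporter together with the drug. The part of the reporter in the member results was not tested.

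All 10 genes lie on chromosome 12 of GRCm38. The Serpina1 genes are on the minus strand, from Serpina1b (chr12:103728156-103830373) through Serpina1d (chr12:103763594-103773592), Serpina1a (chr12:103853589-103863562) and Serpina1c (chr12:103894926-103904887) to Serpina1e (chr12:103946931-103958975). The annotated span of Serpina1b contains Serpina1d, with 0 shared exon bases. The Serpina3 genes follow, with Serpina3c (chr12:104146382-104153870) on the minus strand and Serpina3g (chr12:104236245-104241939), Serpina3k (chr12:104338486-104346144), Serpina3m (chr12:104338486-104394257) and Serpina3n (chr12:104406729-104414329) on the plus strand. Serpina3k and Serpina3m share 60 exon bases at their common start. The non-coding B430119L08Rik overlaps 429 exon bases of Serpina1c on the other strand. Its level stayed between 0 and 15.3 normalized counts.

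The coding sequences of the 5 Serpina1 genes were 96.3% to 98.5% identical to each other, those of the 5 Serpina3 genes 80.2% to 90.9%, and those between the families 59.0% to 61.0%. The stretch that encodes the reactive centre loop is printed for the Serpina1 genes, because it holds a large share of the bases by which reads can tell the copies apart and sets the target of the protein. It is read 5′ to 3′ from the annotated transcripts (GENCODE, GRCm38) at bases 1081 to 1167 of the coding sequence. The capitals mark the bases between the hinge and the codons after the loop. The hinge bases are the same in the 5 copies, while the codons after the loop differ in Serpina1c and Serpina1e. Differences in those codons count among the differences of the stretch given below.
Serpina1a: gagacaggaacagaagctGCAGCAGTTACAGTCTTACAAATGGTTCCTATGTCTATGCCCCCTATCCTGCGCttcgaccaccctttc
Serpina1b: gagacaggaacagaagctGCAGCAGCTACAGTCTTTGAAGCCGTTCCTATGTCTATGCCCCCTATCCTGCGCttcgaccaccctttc
Serpina1c: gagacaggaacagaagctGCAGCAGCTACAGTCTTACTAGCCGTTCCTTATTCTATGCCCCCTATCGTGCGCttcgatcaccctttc
Serpina1d: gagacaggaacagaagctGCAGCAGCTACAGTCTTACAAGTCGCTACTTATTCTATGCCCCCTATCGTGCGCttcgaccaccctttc
Serpina1e: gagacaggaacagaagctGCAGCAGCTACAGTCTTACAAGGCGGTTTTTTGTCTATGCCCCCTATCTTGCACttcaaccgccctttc

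Against Serpina1b, the stretch differed at 6 bases in Serpina1a, 8 in Serpina1c, 9 in Serpina1d and 11 in Serpina1e. Over the whole coding sequence Serpina1e differed from Serpina1b at 46 bases, so that 23.9% of the differences fell in a stretch that makes up 7.00% of the coding sequence. In Serpina1a, the copy nearest to Serpina1b, 16.2% of its 37 differences fell there. The same stretch in Serpina3k, the most abundant member per transcript base, and in Serpina3n, the acute-phase member, is shown to mark how far the second family departs.
Serpina3k: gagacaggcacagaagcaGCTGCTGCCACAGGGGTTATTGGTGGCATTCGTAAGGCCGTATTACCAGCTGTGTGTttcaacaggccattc
Serpina3n: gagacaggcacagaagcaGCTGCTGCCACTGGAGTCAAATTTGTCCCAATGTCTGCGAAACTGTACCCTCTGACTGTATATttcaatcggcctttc

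Only uniquely mapped reads were counted, so a read from a stretch that 2 copies share counted for neither. Of all windows of 86 bases, the read length, along the main transcript, 34.4% in Serpina1a and 28.6% in Serpina1c occurred in no other annotated gene. The share was 66.6% in Serpina1d, 70.7% in Serpina1b and 78.5% in Serpina1e. Serpina1a and Serpina1c had 774 windows in common, more than any other pair of members. In the Serpina3 family the share was 92.2% in Serpina3m, 93.0% in Serpina3g, 93.8% in Serpina3k, 99.1% in Serpina3n and 100% in Serpina3c. By this measure the counts of Serpina1a and Serpina1c rest on the smallest parts of their transcripts, and the split between them is uncertain. The count of Serpina1e, the most variable member, rests on the largest part among the Serpina1 genes.

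Levels were compared between genes only per length. Per 1000 transcript bases, the control means ran from 31610 normalized counts in Serpina3k through 18951 in Serpina1b, 17354 in Serpina1e, 11296 in Serpina1c, 9146 in Serpina1a, 8993 in Serpina1d, 6837 in Serpina3n, 5112 in Serpina3m and 1226 in Serpina3c down to 106 in Serpina3g. When the same counts were divided by the windows that no other gene shares, Serpina1c came first at 42118 ± 6638 (SD, n = 3) per 1000 windows. Windows were matched on both strands, so 240 windows of Serpina1c found in the overlapping B430119L08Rik counted as shared. Reads from that overlap can still map uniquely, so the Serpina1c levels per window, here and below, may be too high. Serpina3k followed at 35166 ± 3361, Serpina1b at 28560 ± 2763 and Serpina1a at 28400 ± 2238. Serpina1e stood at 23656 ± 21667 and Serpina1d at 14376 ± 4632, ahead of Serpina3n at 7196 ± 2108, Serpina3m at 5845 ± 994, Serpina3c at 1274 ± 470 and Serpina3g at 120 ± 18.

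Between neighbours in this second order, the 3 control libraries of Serpina3k lay above those of Serpina1b, those of Serpina1d above Serpina3n, those of Serpina3m above Serpina3c and those of Serpina3c above Serpina3g. The other neighbours overlapped. With Dox, Serpina1e dropped from the fifth place to the eighth by this measure (1500 ± 377 per 1000 windows), behind Serpina3n at 2219 ± 197. With Tc the first place again went to Serpina1c (60336 ± 10627) and the second to Serpina3k (42445 ± 7349).

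**Figure D1:**
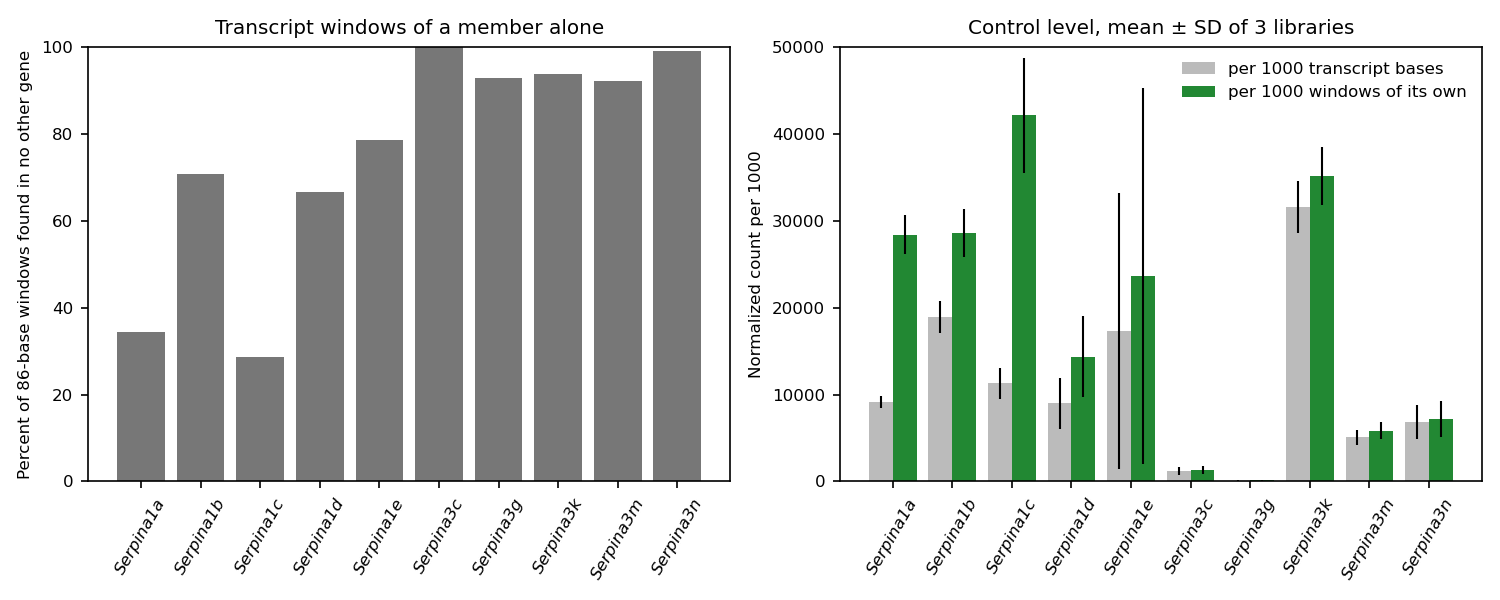
Left, the percent of 86-base windows of each member's main transcript that occur in no other annotated gene. Right, control levels as normalized counts per 1000 transcript bases (grey) and per 1000 windows of the member alone (green), as mean ± SD of 3 libraries. Serpina1a and Serpina1c have the fewest windows of their own, 34.4% and 28.6%, and gain most on the second scale.

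Before the comparisons, a property of the libraries has to be given. Each library 3 was approximated by adding up the other two libraries of its group, with fitted weights of 58.3% and 42.1% in controls, 61.3% and 34.6% with Dox and 62.1% and 36.7% with Tc. Over the 10 members and 3 groups, library 3 lay between the others in 22 of 30 cases. These were 5 of 10 members in controls, 9 with Dox and 8 with Tc. Member values of library 3 departed from the fitted sum by −24.8% to 26.0%, so the approximation was rough for single members. Results are therefore given with all 9 libraries and without libraries 3. The second Dox library stood apart, with 4264 of 12100 genes over 2-fold from the first Dox library, against 586 between the control libraries and 1022 between the Tc libraries. Depth was 7426136 to 12183041 reads on genes per library. The members had from 79 reads (Serpina3g) to 96434 reads (Serpina3k) per library. Serpina3g had 79 to 242 reads, so counting error adds to its spread between libraries. The lowest count of any other member was 817 reads (Serpina3c).

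Hepatocyte markers were present in every library, as the tissue label says. Their summed level ran from 1346660 to 1857450 normalized counts in controls, from 734324 to 1059730 with Dox and from 1113950 to 1573010 with Tc, and the gene that set this sum was Alb, albumin, with 956160 to 1408840 in controls, 255548 to 607452 with Dox and 576729 to 1093210 with Tc. The 9 markers other than Alb summed to between 390501 and 448612 in controls, between 441930 and 478776 with Dox and between 479798 and 537217 with Tc. Tat, 1 of these 9, had 21169, 11817 and 16131 in controls, 13817, 159364 and 63627 with Dox and 15567.5, 28148 and 21795 with Tc. The sum of the second Dox library thus rests in large part on Tat and does not show that the other markers were steady. The median log2 fold change of the 10 markers was −0.10 for Dox against control and 0.03 for Tc against control. Limma called 0 of the 10 in any comparison, while DESeq2 with all libraries called 1 lower and 1 higher with Dox against control and, without libraries 3, 0. Their part in the member results was not tested. In whole liver, fewer cells of a type and less RNA per cell cannot be told apart.

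Serpina1e had the widest range of all members, and the range lay within the groups. Its normalized counts were 42681, 1532 and 23205 in the control libraries, 1781, 1064 and 1431 with Dox, and 2087, 31493 and 12539 with Tc. The first and the second control library thus differed 27.9-fold, more than 99.9% of the tested genes did between these libraries. The first and the second Tc library differed 15.1-fold, more than 99.4% of genes, while with Dox the difference was 1.67-fold. The second control library lay within the range of the Dox libraries, so controls and Dox overlapped, and the first Tc library lay just above that range.

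Serpina1d, another alpha-1-antitrypsin copy, varied less. Its counts were 16395, 8339 and 12873 in controls, 7695, 5290 and 6346 with Dox, and 9158, 13680 and 9893 with Tc. All 3 Dox libraries lay below all control and all Tc libraries. High Serpina1d went with high Serpina1e in the first control library and in the second Tc library.

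Serpina1a, Serpina1b and Serpina1c shared a pattern in which the second Dox library stood alone. Serpina1a had 12029, 11730 and 13558 in controls, 16305, 3963 and 11503 with Dox, and 21154, 11600 and 15071 with Tc. Serpina1b had 28240, 23497 and 27516 in controls, 31363, 12918 and 23677 with Dox, and 37557, 27132 and 29836 with Tc. Serpina1c had 16551, 12587 and 16982 in controls, 20296, 1997 and 13473 with Dox, and 26336, 20909 and 18823 with Tc. In each of these 3 genes the first Dox library was above every control library and the second Dox library below every other library. For Serpina1c the first and the second Dox library differed 10.2-fold. Its Tc libraries all lay above the control libraries, the sole member with groups apart in that comparison. That state of groups apart in this direction held for 15.8% of all tested genes.

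Serpina3k, known as a kallikrein-binding protein, had 62460, 60500 and 72109 normalized counts in controls, 64786, 15595 and 44936 with Dox, and 94169, 70919 and 70356 with Tc. Serpina3m had 6903, 8790 and 9732 in controls, 8920, 3688 and 6654 with Dox, and 12317, 8863 and 9338 with Tc. Serpina3c had 1614, 3572 and 2950 in controls, 3680, 940 and 2658 with Dox, and 5180, 1772 and 3238 with Tc. In all 3 genes the second Dox library was the lowest of the 9 and the first Tc library the highest. The Dox and control ranges overlapped for each.

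Serpina3n, the acute-phase member, had 17885, 9694 and 14756 normalized counts in controls, 4111, 4797 and 4149 with Dox, and 5164, 47503 and 20243 with Tc. The 3 Dox libraries were within 1.17-fold of each other and below every control and Tc library. The first and the second Tc library differed 9.20-fold, more than 99.1% of tested genes did. Serpina3g, the member with the lowest level, had 159, 205 and 211 in controls, 83.2, 133 and 73.0 with Dox, and 133, 218 and 184 with Tc. Its Dox libraries lay below the controls, and the highest of them was level with the lowest Tc library.

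Across the 9 libraries, 8 of 10 members were lowest in the second Dox library, and 6 were highest in the first Tc library. Serpina1d and Serpina1e were highest in the first control library, Serpina3g and Serpina3n in the second Tc library. The ratio of the highest to the lowest library was 40.1 for Serpina1e, 13.2 for Serpina1c, 11.6 for Serpina3n and between 2.91 and 6.04 for the other members.

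**Figure D2:**
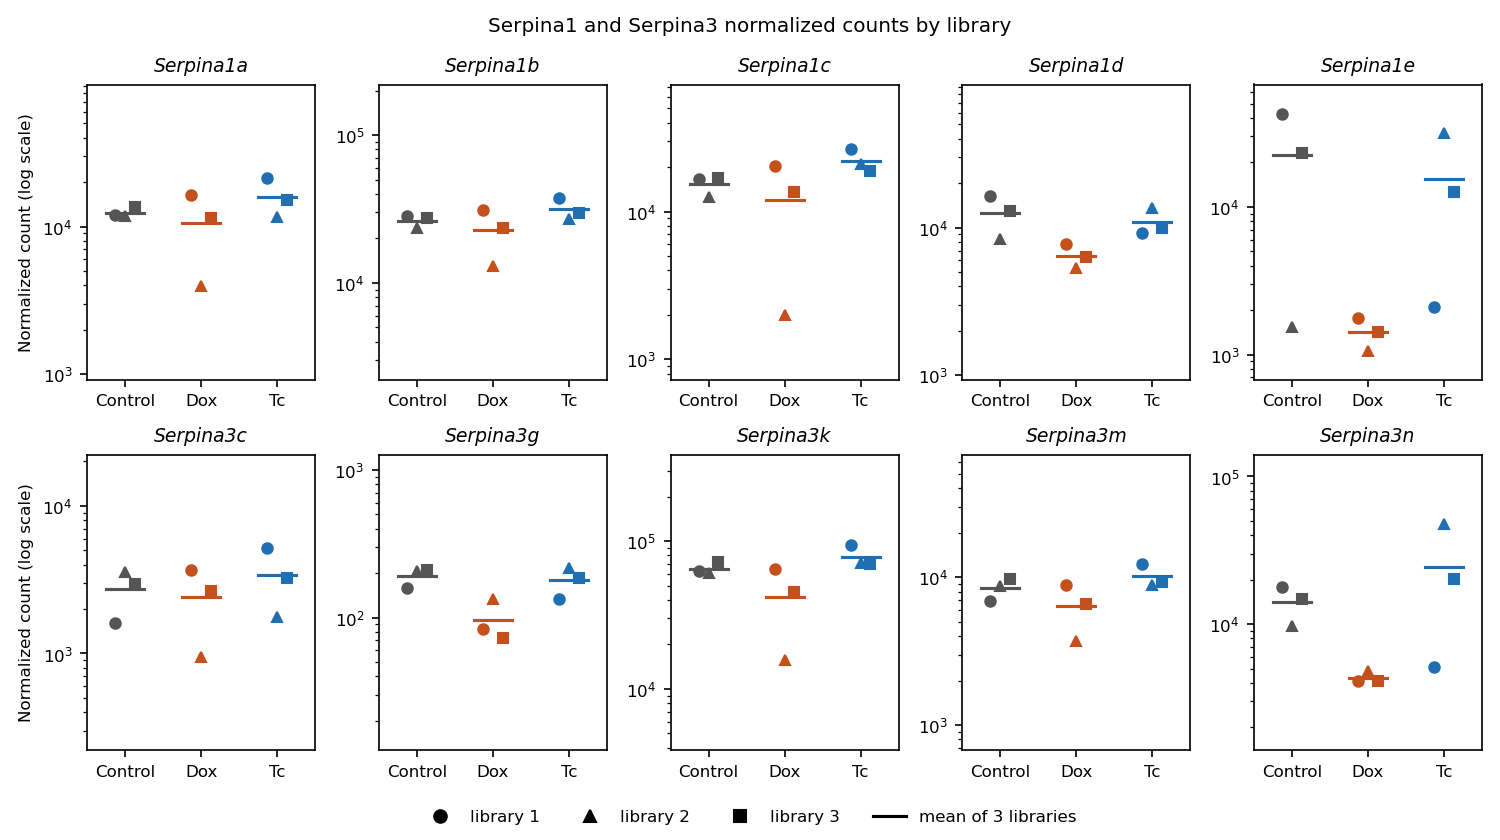
Normalized counts of the 10 members (log axis spanning the same ratio in every panel) in the control, Dox and Tc libraries. Marker shapes give the library number and bars the mean of 3 libraries. Serpina1e spreads from 1532 to 42681 in the controls, while the Dox libraries of Serpina3n lie between 4111 and 4797 and the second Dox library is lowest in 8 of 10 panels.

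The make-up of each family, in counts not corrected for length or for windows shared with other genes, differed between libraries. Serpina1e contributed 36.8%, 2.66% and 24.7% of the summed Serpina1 count in controls, 2.30%, 4.22% and 2.54% with Dox, and 2.17%, 30.0% and 14.6% with Tc. Its share was thus low in every Dox library but also in 1 control and 1 Tc library. Serpina1b, with 24.4% to 40.7% in controls, was the largest contributor with Dox at 40.5%, 51.2% and 42.0%. Per 1000 windows that no other gene shares, the Dox mean was higher in Serpina1c (32663 ± 25336) than in Serpina1b (24489 ± 10016), with overlapping libraries. The share of Serpina1c was 7.91% in the second Dox library, against 23.9% and 26.2% in the other two. The summed Serpina1 count was 89238 ± 29413 in controls, 53034 ± 26270 with Dox and 95756 ± 9338 with Tc (SD, n = 3).

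In the Serpina3 family, Serpina3k made up 70.2%, 73.1% and 72.3% of the sum in controls, 79.4%, 62.0% and 76.9% with Dox, and 80.5%, 54.9% and 68.1% with Tc. Serpina3n made up 20.1%, 11.7% and 14.8% in controls, 5.04%, 19.1% and 7.10% with Dox, and 4.41%, 36.7% and 19.6% with Tc. Its higher share in the second Dox library came with a low Serpina3k there, since its own count was much the same in the 3 Dox libraries. The summed Serpina3 count was 90513 ± 8596 in controls, 55067 ± 28367 with Dox and 116532 ± 12963 with Tc. As a part of all counts, the Serpina1 sum was 0.849% ± 0.23 in controls, and the Serpina3 sum 0.872% ± 0.07.

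**Figure D3:**
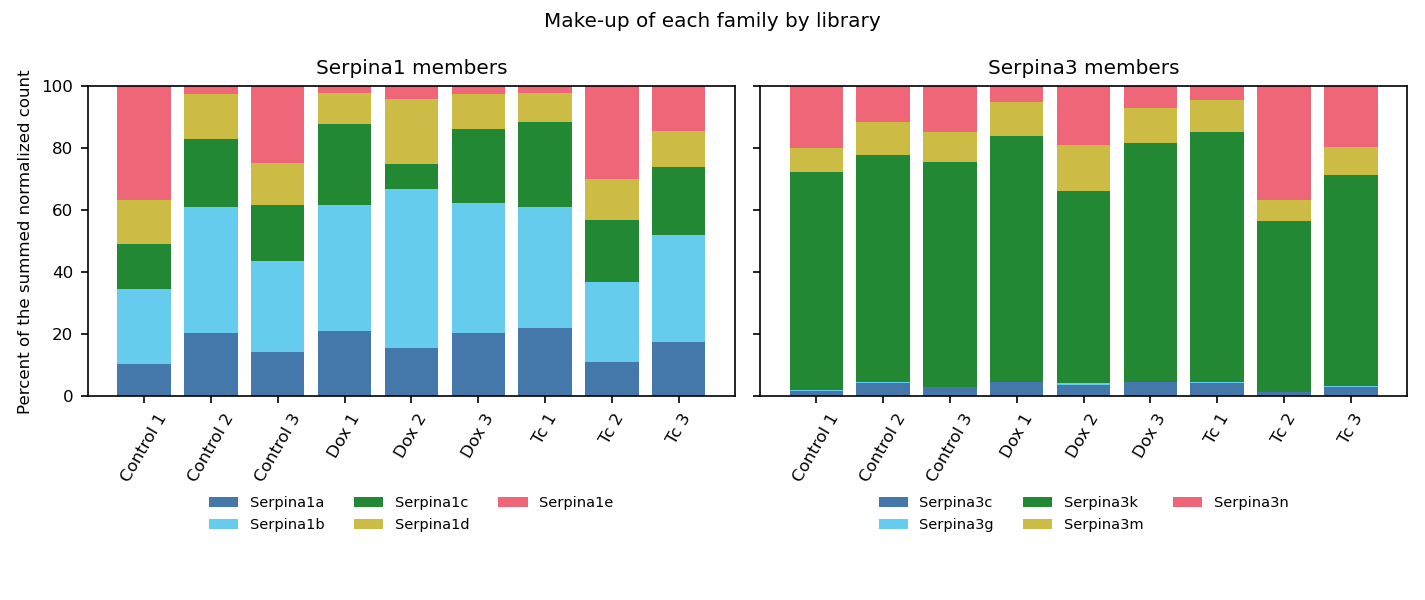
Percent of the summed normalized count of the Serpina1 members (left) and Serpina3 members (right) that each member contributed, by library. Counts are not corrected for length or for windows shared with other genes. Serpina1e takes 36.8% in the first control library and 2.66% in the second, and Serpina3n takes 36.7% in the second Tc library and 4.41% in the first.

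Against the controls, 0 of 10 members were called with Dox by limma over all 9 libraries, where a gene was called if it differed over 2-fold and its p, adjusted by Benjamini-Hochberg over all tested genes, was below 0.05. Of all tested genes 5% were called. Every member had a mean log2 value below the controls, with a median log2 fold change of −0.88 against 0.0001 over all tested genes. Serpina1d, Serpina1e, Serpina3g and Serpina3n had an unadjusted p under 0.05, a state that 29.1% of all genes shared. The same limma fit without libraries 3 called 0 members as well, with adjusted p of 0.584 or more, where 0% of all genes were called. With edgeR and all libraries 0 members and 5.52% of all genes were called.

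The largest difference was that of Serpina1e, with a log2 fold change of −3.04 (standard error 1.29, limma adjusted p = 0.160) and an interval from −5.97 to −0.11. Without libraries 3 it was −2.55 (limma adjusted p = 0.660). Serpina3n differed by −1.66 (standard error 0.68, limma adjusted p = 0.149), and by −1.57 without libraries 3. Serpina3g came nearest to the threshold, at −1.02 (standard error 0.27, limma adjusted p = 0.0505). With the replicate number as a block its adjusted p was 0.0358 in limma, which made it the sole member called in that fit, where 4.6% of all genes were called, and without libraries 3 its difference was −0.77 (limma adjusted p = 0.584). Serpina1d differed by −0.92 (standard error 0.29, limma adjusted p = 0.0795) and by −0.87 without libraries 3.

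DESeq2 on the recovered reads of all 9 libraries called 2 of 10 members, both lower with Dox, and 8.31% of 14503 genes. These 14503 were the genes to which it gave an adjusted p. Here and below, DESeq2 shares of all genes are on that base, which differed between comparisons and settings. The 2 members were Serpina1e (log2 fold change −3.98, DESeq2 adjusted p = 0.00846) and Serpina3n (−1.70, DESeq2 adjusted p = 0.0345). Without libraries 3, DESeq2 called neither and 0.892% of all genes, with adjusted p of 0.443 for Serpina1e and 0.555 for Serpina3n. The DESeq2 log2 fold changes changed little, at −3.95 for Serpina1e and −1.62 for Serpina3n without libraries 3. Dropping libraries 3, which were approximated by sums of the others, changes both the number of libraries and the spread within groups. Which of these cost the calls was not tested.

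The remaining members differed less, at −0.45 for Serpina1a, −0.31 for Serpina1b, −0.90 for Serpina1c, −0.30 for Serpina3c, −0.86 for Serpina3k and −0.48 for Serpina3m, with limma adjusted p from 0.280 to 0.754. Without the second Dox library the differences of Serpina1a, Serpina1b, Serpina1c and Serpina3c turned positive, at 0.14, 0.05, 0.12 and 0.28. Those of Serpina3k and Serpina3m shrank to −0.26 and −0.12 without it and stayed negative whichever single library was left out. The differences of Serpina1d, Serpina1e, Serpina3g and Serpina3n stayed negative as well, and that of Serpina1e ran from −4.50 without the second control library to −2.10 without the first. Without the first Dox library limma called Serpina1d and 12.5% of all genes. Without the second Dox library it called Serpina3g and 9.22% of all genes, and without the first Tc library Serpina3n and 4.41%. The groups did not overlap for 3 of 10 members (Serpina1d, Serpina3g and Serpina3n), all lower with Dox, against 17.1% of all tested genes.

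Since Serpina3g is known from immune cells as well, markers of these cells are given beside it. The 8 Kupffer cell markers, genes of the resident macrophages, summed to between 7366 and 13928 normalized counts in controls, between 2019 and 7234 with Dox and between 3541 and 7000 with Tc, and 2 of 8 (Adgre1 and Clec4f) were called lower with Dox (limma). DESeq2 called 5 of 8 lower, and 1, Clec4f, without libraries 3. T and NK cell markers summed to between 34.9 and 49.5 in controls, between 8.42 and 20.7 with Dox and between 13.5 and 23.4 with Tc, and 0 of 6 reached the level needed for testing. None of the 14 was at 0 in every library. Their part in the Serpina3g values was not tested.

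Between Tc and controls, 0 of 10 members were called (limma, all 9 libraries), against 0.165% of all tested genes, and 0 members had an unadjusted p under 0.05, against 11.7% of all genes. DESeq2 called 0 members as well (1.3% of all genes, and 0.0289% without libraries 3), and so did edgeR (0.174%), limma with the replicate block (0.0165%) and limma without libraries 3 (0%). The median log2 fold change of the members was 0.26, against 0.0036 over all genes. The values were 0.32 for Serpina1a, 0.25 for Serpina1b, 0.52 for Serpina1c, 0.27 for Serpina3c, 0.26 for Serpina3k, 0.26 for Serpina3m and 0.32 for Serpina3n. They were −0.17 for Serpina1d, −0.29 for Serpina1e and −0.12 for Serpina3g, with limma adjusted p from 0.821 to 0.960 over the 10 members.

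The intervals show how much a difference could hide. For Serpina1e the interval ran from −3.22 to 2.64 and for Serpina3n from −1.22 to 1.86 on the log2 scale, while for Serpina3g it ran from −0.73 to 0.49 and for Serpina1b from −0.52 to 1.01. Without libraries 3 the sign of Serpina1e turned (0.0034), and the other 9 members kept theirs. With 1 library left out the sign turned for 5 members. These were Serpina3n without the second Tc library (−0.42), Serpina3c without the first Tc (−0.10) or the first control library (−0.07), Serpina1d without the first control library (0.05) and Serpina3g without the first Tc library (0.07). Serpina1e turned without the first control (0.65), the third control (0.21) or the first Tc library (0.79).

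In the direct comparison of the related compounds at the same concentration and time, 0 of 10 members were called (limma, all 9 libraries), against 0.215% of all tested genes. The members were compared in 1 pair of compounds and the p-values adjusted over all 12100 genes. Each of the 10 members had a lower mean log2 value with Dox than with Tc, with a median difference of −0.83 against −0.02 over all genes. At every replicate number the Dox library was below the Tc library for 10 of 10 members, a state found for 22.7% of all tested genes. As libraries 3 were approximated by sums of the others, the third of these comparisons cannot be counted as independent of the first and the second.

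For Serpina3n the difference of Dox from Tc was −1.97 (standard error 0.68, limma adjusted p = 0.167), with an interval from −3.51 to −0.44. It was −2.75 for Serpina1e (standard error 1.29, limma adjusted p = 0.250), with an interval from −5.68 to 0.18. Serpina3g differed by −0.90 (limma adjusted p = 0.143) and Serpina1d by −0.75 (limma adjusted p = 0.191). These intervals of −1.51 to −0.29 and −1.41 to −0.10 exclude 0 before adjustment. Serpina3m differed by −0.74, with an interval from −1.47 to −0.01, and these 4 of Serpina1d, Serpina3g, Serpina3m and Serpina3n had an unadjusted p under 0.05, against 21.7% of all genes.

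For Serpina1e and 5 further members the interval included 0, with differences in those 5 of −1.42 for Serpina1c, −1.12 for Serpina3k, −0.77 for Serpina1a, −0.56 for Serpina3c and −0.55 for Serpina1b. Without the second Dox library these 5 differences were −0.40, −0.53, −0.18, 0.014 and −0.20 in the same order, and that of Serpina3m was −0.39. Without the second Tc library the difference of Serpina3n was −1.24. The Dox and Tc libraries did not overlap for Serpina1d, Serpina1e, Serpina3k and Serpina3n, all lower with Dox, so 4 of 10 members were apart against 12.4% of all tested genes. With the replicate number as a block, 0 members and 0.0165% of all genes were called, and the limma adjusted p of Serpina3n was 0.204. Without libraries 3, limma called 0 members and 0% of all genes, with adjusted p of 0.755 or more for the members, and edgeR called 0 members and 0% of all genes with all libraries.

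DESeq2 with all 9 libraries called 2 of 10 members lower with Dox than with Tc, Serpina1e (−3.43, DESeq2 adjusted p = 0.0460) and Serpina3n (−2.48, DESeq2 adjusted p = 0.00207), and 4.47% of all genes. Without libraries 3 it called 0 members and 0.268% of all genes, at differences much like those with all libraries, −2.56 for Serpina3n (DESeq2 adjusted p = 0.310) and −3.55 for Serpina1e (DESeq2 adjusted p = 0.829). Without the first Dox library limma called Serpina3k and Serpina3m lower with Dox, and 11.3% of all genes. Without the second Dox library it called Serpina3g and 1.49% of all genes, and without the first Tc library Serpina3n and 0.635%, both lower with Dox. A difference that misses the threshold does not show that the compounds act alike on these genes.

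**Figure D4:**
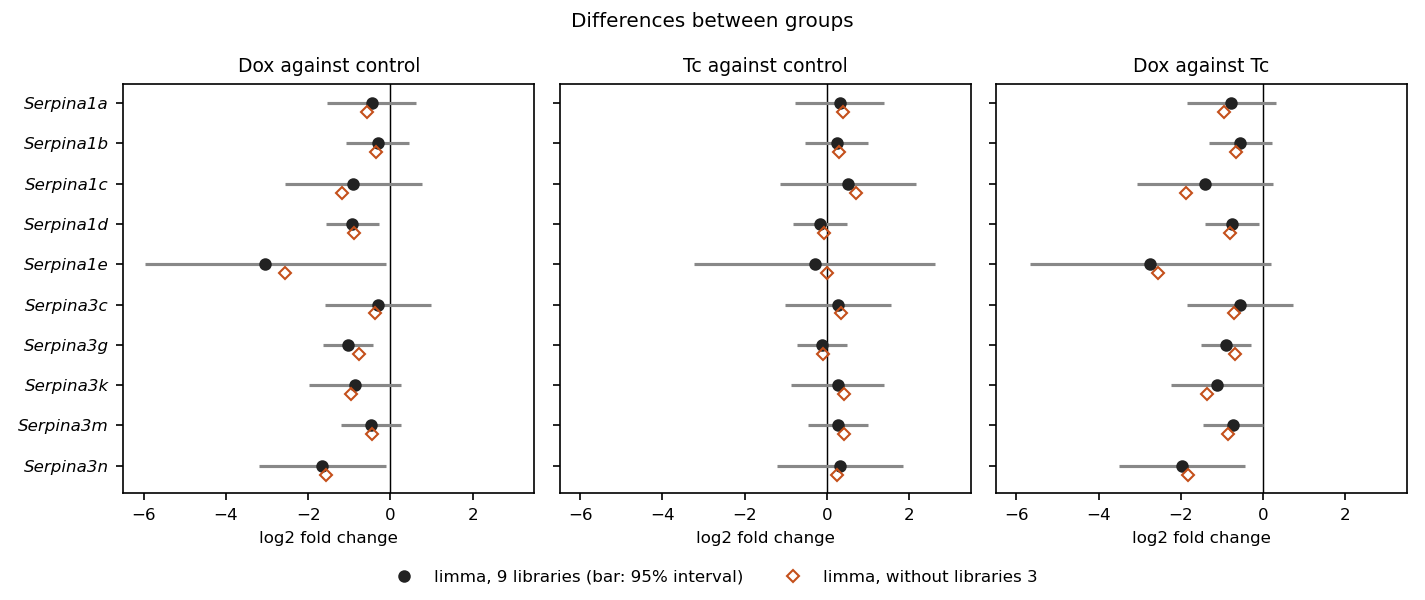
Log2 fold changes of the 10 members on the log2(normalized count + 1) scale in the 3 comparisons. Filled points and bars give the limma estimate and its 95% interval with all 9 libraries, and open diamonds the estimate without libraries 3. All 10 points lie below 0 for Dox against control and for Dox against Tc, while for Tc against control they lie between −0.29 and 0.52.

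The start regions of the members were searched for motifs of liver factors, since several members moved together. RefSeq (GRCm38.p6) gave the 250 bases before to 50 bases after the start for 8 of 10 members, not for Serpina3k and Serpina3m. These windows were 91.4% to 97.6% identical among the Serpina1 genes, and 92.6% between Serpina3c and Serpina3n. The windows of Serpina1b and Serpina1e are printed because they were the most alike of all Serpina1 pairs, at 97.6% over the 250 bases that they share, while Serpina1b ranged 2.91-fold and Serpina1e 40.1-fold over the libraries. Capitals mark GTTAAT, a half-site known for hepatocyte nuclear factor 1, and TTGCNNAA, a C/EBP-type motif.
Serpina1b (chr12:103738140-103738439, minus strand): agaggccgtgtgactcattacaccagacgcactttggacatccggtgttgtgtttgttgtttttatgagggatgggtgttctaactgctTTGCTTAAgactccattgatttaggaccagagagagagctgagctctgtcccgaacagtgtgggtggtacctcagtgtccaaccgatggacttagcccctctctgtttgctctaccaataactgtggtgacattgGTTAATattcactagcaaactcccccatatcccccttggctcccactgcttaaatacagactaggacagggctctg
Serpina1e (chr12:103956848-103957147, minus strand): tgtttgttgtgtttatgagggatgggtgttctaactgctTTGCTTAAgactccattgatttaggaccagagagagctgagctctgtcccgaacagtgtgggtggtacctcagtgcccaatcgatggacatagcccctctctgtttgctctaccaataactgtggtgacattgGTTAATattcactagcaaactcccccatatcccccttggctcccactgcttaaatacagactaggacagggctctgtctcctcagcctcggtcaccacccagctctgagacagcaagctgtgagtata

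GTTAAT, searched on both strands, was found in the windows of all 5 Serpina1 genes and of Serpina3c, and not in those of Serpina3g and Serpina3n. Of all 32851 windows 7.10% held it. In the Serpina1 genes it lay between positions −16 (Serpina1d) and −78 (Serpina1e) from the start, with the RefSeq start of Serpina1e placed further downstream. TTGCNNAA was found before the start in Serpina1b (−161), Serpina1d (−149) and Serpina1e (−211) and after it in Serpina1a (24). Of all windows 10.8% held it. TTCNNNGAA, a STAT-type motif, was found in Serpina3g alone among the 8, and in 8.30% of all windows. A match is a description of these letters and not a site.

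For the 3 members with the widest range, the non-member genes with the most similar log2 values over the 9 libraries are given as a description, among 9369 genes with a mean of at least 50. Serpina1e was most like Tspan4, a tetraspanin (r = 0.96), Acadl, an acyl-CoA dehydrogenase (r = 0.95), and Cox20 (r = 0.94), and among the members most like Serpina1d (r = 0.93). Serpina1c was most like Syt1, a synaptotagmin, and Gstt1, a glutathione transferase (r = 0.998 and 0.997), and Epb41l4b (r = 0.99), and among the members most like Serpina3k (r = 0.98). Serpina3n was most like P4hb, a protein disulfide isomerase, Cyp3a16, a cytochrome P450, and Klhl25 (r = 0.96, 0.96 and 0.95), and its nearest member was Serpina1e (r = 0.87). The 9 points share libraries 3 that were approximated by sums of the others. For Serpina1c the low second Dox library is 1 of the 9 points.

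Cyp3a16 had 443, 38.9 and 244 normalized counts in controls, 2.1, 2.3 and 1.8 with Dox and 3.9, 692 and 219 with Tc, which shares with Serpina3n and Serpina1e the high first control and second Tc libraries. Syt1 had 236, 173 and 223 in controls, 274, 20.7 and 194 with Dox and 373, 292 and 300 with Tc.

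Of the 15 other Serpina genes listed, 14 were looked up and 7 were tested. Serpina10, the protein Z-dependent inhibitor of coagulation, had 5540, 4577 and 5023 normalized counts in controls, 1740, 480 and 1170 with Dox and 2768, 7217 and 4426 with Tc. It was called lower with Dox (log2 fold change −2.34, standard error 0.48, limma adjusted p = 0.0249), the sole call of the 7. Without libraries 3 its difference was −2.46 with limma (adjusted p = 0.558) and −2.18 with DESeq2 (adjusted p = 0.124), and with the replicate block its limma adjusted p was 0.0514. With Tc its difference from the controls was −0.18. The median over the 7 was −1.0 with Dox, 0.37 with Tc and −1.37 for Dox against Tc.

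Serpina6, corticosteroid-binding globulin, had 1521, 1347 and 1569 in controls, 3049, 72.5 and 1784 with Dox and 4305, 5496 and 4124 with Tc. All 3 Tc libraries lay above all control libraries, with a log2 fold change of 1.64 (limma adjusted p = 0.647 with all 9 libraries, which include the low second Dox library in the estimate of the spread). Limma called Serpina6 higher with Tc in the fit of only these 2 groups (limma adjusted p = 0.00125, 2.28% of all genes called), without the second Dox library (limma adjusted p = 0.00376, 1.86%) and with array weights, a fit that did not fully converge (limma adjusted p = 0.00395, 6.09%). Serpina12 had a similarly low second Dox library (88.5, 6.9 and 49.3 with Dox). Serpina7, thyroxine-binding globulin, had 88.9, 53.1 and 81.4 in controls, 344, 74.8 and 185 with Dox and 99.6, 471 and 202 with Tc. Serpina11 ran from 794 to 2554 and Serpina3f from 22.1 to 99.2 over the 9 libraries. In the unweighted limma fit of all 9 libraries none of these 5 was called in any comparison, and DESeq2 called Serpina3f lower with Dox (−1.11, DESeq2 adjusted p = 0.0259). With array weights limma also called Serpina6 lower with Dox than with Tc (−1.26, 8.85% of all genes called). That fit called Serpina7 higher than in controls with Dox (1.25, 12.9%) and with Tc (1.36, 6.09%). The other 8 listed genes had means under 50, and Serpina3b and Serpina16 were at 0 in every library.

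Among 14 tested serpins of other clades, which include antithrombin, heparin cofactor II and antiplasmin, 0 were called in any comparison by limma, with median differences of −0.48, −0.08 and −0.23 for Dox against control, Tc against control and Dox against Tc. DESeq2 called 1, 0 and 1 of them. Of the 18 tested plasma protease inhibitors outside the serpins, 3 were called lower with Dox (limma). These were Itih1, Itih3 and Itih4, heavy chains of the inter-alpha-trypsin inhibitor family, at −1.50, −1.49 and −2.50. The median of that list was −0.59 with Dox and −0.11 with Tc. Itih4 had 111512, 75118 and 93355 normalized counts in controls, 19487, 13294 and 16592 with Dox and 33608, 147498 and 76643 with Tc. Without libraries 3, DESeq2 called Itih1 and Itih4 (DESeq2 adjusted p = 0.0359 for both) and not Itih3 (DESeq2 adjusted p = 0.373), and limma called 0 of the 3, with adjusted p of 0.558 to 0.573. With the replicate block the limma adjusted p of Itih3 was 0.0604.

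Of 15 target proteases, 7 were tested and Prtn3, the neutrophil serine protease proteinase 3, was called lower with Dox (−7.76, standard error 1.32, limma adjusted p = 0.0150). It had 652, 720 and 699 normalized counts in controls, 3.2, 1.2 and 2.6 with Dox and 6.8, 609 and 237 with Tc. Like Serpina3n and Serpina1e, it was low in the first Tc library and high in the second. Elane and Ctsg, which encode the classical targets neutrophil elastase and cathepsin G, stayed at or under 20.3 and 8.9 normalized counts in every library, and Elane was at 0 in the 3 Dox libraries. Of the 10 neutrophil markers, 6 were tested, and Mpo, myeloperoxidase, was called lower with Dox (limma). Mpo had 9.5, 111.5 and 66.1 in controls, 0, 1.2 and 0.9 with Dox and 4.9, 9.9 and 6.7 with Tc. It was thus low in the first control library, where Prtn3 was not. Without libraries 3, limma called neither Prtn3 nor Mpo (adjusted p = 0.558 for both), and DESeq2 called both (adjusted p of 0.00746 and 0.0348). The sum of the 10 neutrophil markers ran from 113 to 591 in controls, from 20.01 to 174 with Dox and from 26.4 to 189 with Tc. The part of neutrophils in the Prtn3 values was not tested.

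Factors and receptors known to drive serpin transcription, such as hepatocyte nuclear factors, C/EBP proteins, Stat3, the glucocorticoid receptor and the interleukin-6 receptor, showed 0 calls among 21 tested genes in any comparison (limma), with medians of −0.08, −0.11 and 0.015. DESeq2 called 1 of them, lower with Dox than with Tc. Hnf4a had 11276, 9779 and 9993 normalized counts in controls, 9123, 20158 and 12866 with Dox and 9348, 9118 and 9827 with Tc. Nr3c1, the glucocorticoid receptor gene, had 1223, 1240 and 1322 in controls, 1547, 1057 and 1301 with Dox and 1750, 1617 and 1493 with Tc. The second Dox library, in which 8 of 10 members were lowest, was the highest for Hnf4a and the lowest for Nr3c1. Library values of the other factors are not given here, and the part of any factor in the member results was not tested. Of the 19 secretion and quality control genes, limma called 0, with medians of −0.34, 0.12 and −0.55. DESeq2 with all libraries called 1 lower for Dox against control and 2 lower for Dox against Tc, and without libraries 3 it called 0. Lman1, a cargo receptor that carries alpha-1-antitrypsin out of the endoplasmic reticulum, had 2753, 2916 and 2887 in controls, 3255, 1390 and 2439 with Dox and 3122, 3645 and 3153 with Tc.

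Of 18 acute-phase genes other than the serpins, 9 were called lower with Dox and 0 higher (limma), with a median of −1.82. They were Saa1, Saa2 and Saa3 (serum amyloid A), Orm2 (orosomucoid), Hp (haptoglobin), Apcs (serum amyloid P) and the fibrinogen chains Fga, Fgb and Fgg. DESeq2 with all libraries called 14 of the 18, all lower, and edgeR 8. Without libraries 3, DESeq2 called 4 of the 18 and limma 0. With the replicate block limma called 6, and Saa3, Fga, Fgb and Fgg were no longer called (limma adjusted p of 0.0509, 0.0862, 0.0626 and 0.0780). With Tc 0 of 18 were called against the controls by limma, DESeq2 or edgeR, with a median of −0.54 and 3 of 18 at an unadjusted p under 0.05. Between Dox and Tc the median was −1.48. There limma and edgeR called 0 of 18, with 14 at an unadjusted p under 0.05 (limma), while DESeq2 called 12, all lower with Dox, and 5 without libraries 3. Orm2 was 1 of these, at −3.52 (limma adjusted p = 0.0641). Their summed level ran from 518200 to 531332 normalized counts in controls, from 162113 to 176773 with Dox and from 253057 to 713582 with Tc. The wide Tc range was shared by Serpina3n.

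Of the remaining marker lists, Cdh5 and Stab2 of 6 endothelial markers and Hba-a1, Hba-a2 and Hbb-bt of 5 tested erythroid markers were called lower with Dox, Sox9 of 3 tested cholangiocyte markers was called higher, and 0 of 6 stellate cell markers were called (limma). Without libraries 3, limma called none of these 6 genes and DESeq2 called Stab2 and Hbb-bt, with DESeq2 adjusted p of 0.491 for Cdh5, 0.211 for Hba-a1, 0.207 for Hba-a2 and 0.230 for Sox9. With the replicate block the 3 erythroid calls were lost (limma adjusted p of 0.0518 to 0.0796). Between Tc and controls limma called 0 of the 147 tested genes of the 15 lists, with 24 at an unadjusted p under 0.05, while DESeq2 called 6, among them 4 of 5 erythroid markers, lower with Tc, and 0 without libraries 3. Between Dox and Tc limma and edgeR called 0 of the 147, with 58 at an unadjusted p under 0.05 (limma), and DESeq2 called 26, and 6 without libraries 3.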

How the data were processed

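RNA of powdered liver was made into directional libraries and sequenced as single reads of 86 bases. Per the labels and methods, the authors trimmed reads with cutadapt, aligned them with STAR to mm10, counted uniquely mapped reads per gene with HTSeq 2.0.5 and divided counts by a DESeq2 1.42.0 size factor. The deposited values are thus a signal in normalized counts. The strand setting of the counting is not given in the sources used here. Symbols were found for 32158 of 32285 identifiers.

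Log2(normalized count + 1) was tested with limma 3.58.1 (R 4.3.3, two-sided, trend, 1 model of all 9 libraries) over the 12100 genes whose mean reached 10, with Benjamini-Hochberg adjustment over all of them. Fold changes on this scale understate those of low genes. Whole reads were recovered for 100% of values (within 0.01 of a whole number). All genes were given to DESeq2 1.42.0 with its default filtering. That left 14503, 14872 and 14135 genes with an adjusted p for Dox against control, Tc against control and Dox against Tc. EdgeR 4.0.16 was given the 12100 genes. DESeq2 and edgeR called 1205 and 668 genes for Dox against control. Deviations from the group mean correlated between Dox and Tc libraries of the same number (r = 0.29, 0.32 and 0.18) and not with those of the controls (−0.08 to 0.06), so the numbers of the labels were also used as a block. The members, lists and alternatives were chosen with earlier results of these data known. Named were all members, list genes called by limma, other Serpina genes whose mean reached 50 and the 3 genes most like each of the 3 widest-ranging members. Genes named beyond that rule (B430119L08Rik, Elane, Ctsg, Hnf4a, Nr3c1, Tat, Lman1) were chosen after their values were seen. Windows of 86 bases were compared with GENCODE transcripts of GRCm38, the same build as mm10.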

Additional observations from a re-analysis of the deposited data

How the results depend on the processing

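For Dox against control, 605 genes and 0 members were called. Genes called were 1205 with DESeq2, 119 with DESeq2 without libraries 3, 1555 with array weights (a fit that did not fully converge), 369 with a mean of at least 50, 1018 with no fold change limit, 333 with only the 2 groups compared, 0 with limma without libraries 3, and 32 to 1511 with 1 library left out. Members called were 2 with DESeq2, 3 with array weights, 1 with only the 2 groups compared, 1 with the replicate block, and 0 to 1 with 1 library left out.

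For Tc against control, 20 genes and 0 members were called. Genes called were 194 with DESeq2, 5 with DESeq2 without libraries 3, 737 with array weights, 9 with a mean of at least 50, 32 with no filter, 276 with only the 2 groups compared, 2 with the replicate block, 0 without libraries 3, and 1 to 225 with 1 library left out. Members called were 0 throughout.

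For Dox against Tc, 26 genes and 0 members were called. Genes called were 632 with DESeq2, 1071 with array weights, 4 with no filter, 3 with the same total per library, 2 with the replicate block, 0 with the replicate block and only Dox and Tc (added after the data were seen), and 0 with edgeR, a mean of at least 50, only the 2 groups compared, a pseudocount of 8 or without libraries 3, and 0 to 1366 with 1 library left out. Members called were 2 with DESeq2, 3 with array weights and 0 to 2 with 1 library left out. Beside the call of Serpina3g for Dox against control, the block changed no other call of a member.

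Of 110 member differences from control under other settings with Dox, 1 reversed (Serpina3c, 0.0054 with array weights), and of 110 with Tc, 1 (Serpina1e, 0.0034 without libraries 3). Of 120 between Dox and Tc, 0 reversed. With 1 library left out, signs turned for Dox against control in Serpina1a (−0.88 to 0.14), Serpina1b (−0.59 to 0.049), Serpina1c (−1.55 to 0.12) and Serpina3c (−0.70 to 0.28), for Tc against control in Serpina1d (−0.44 to 0.052), Serpina1e (−1.75 to 0.79), Serpina3c (−0.10 to 0.67), Serpina3g (−0.28 to 0.075) and Serpina3n (−0.42 to 1.18), and for Dox against Tc in Serpina3c (−0.97 to 0.014). Scaling to the same total moved the median of all genes to 0.17 for Dox against control and 0.16 for Dox against Tc, and no member turned. The causes were not tested. The lowest count of a member was 79 reads, in Serpina3g, where counting error adds to the spread. The other members had at least 817 reads in every library.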
